A study of Mus musculus with 6 samples.

Results

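The Hox genes of cultured inguinal fat cells are described here, as the cells' record of position along the body and as a group of genes followed from control to miR182 overexpression. Members were all gene symbols made of Hox, a cluster letter (a, b, c or d) and a paralog number, and 39 of the 22609 listed symbols met this rule. All 6 samples were primary cultured iWAT, that is inguinal white fat of male C57BL6 mice aged 3 weeks by the labels, from which the stromal vascular fraction was isolated and then differentiated in culture. The 3 control samples carried a control vector and the 3 others carried miR182 overexpression, delivered by electroporation according to the labels, whereas the study's methods name a miR-182-5p mimic with a lipid reagent and mice of another age. The cultures are mixed cells differentiated in a dish rather than fat taken from the animal, and no source used here says whether samples of a group came from separate cultures or mice. The p-values given below therefore measure only the spread between these samples, which may be technical. Poly(A) RNA was sequenced and the reads on each gene were counted.

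Hox genes encode homeodomain transcription factors and stand in clusters on separate chromosomes, each arranged so that genes at one end are used in anterior parts of the embryo and genes at the other end in more posterior parts. Genes with the same paralog number in different clusters descend from one ancestral gene. Connective tissue and fat cells keep part of this pattern after development, and fat depots from different places in the body differ in the Hox genes that they express.

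Reads counted on genes ranged from 25869810 to 26484794 in control and from 25960631 to 28796712 with miR182 overexpression. Hox genes received 10256 to 10669 reads in a control sample and 12212 to 12917 with miR182 overexpression, which was 0.0396% to 0.0405% and 0.0436% to 0.0471% of the reads on genes. The adipocyte markers were all detected, and the summed level of the 10 listed was 12189 to 12957 CPM (counts per 1000000 reads on genes, with library sizes scaled by the trimmed mean of M-values) in control against 8281 to 9393 CPM with miR182 overexpression. Lpl (6275 CPM in control) and Fabp4 (3316 CPM) were the largest members of this sum. By an edgeR adjusted p under 0.05 alone, 8 of the 10 adipocyte markers were lower (23.5% of all genes tested). Lep was higher (1.29-fold), and Plin1 (0.960-fold) did not pass. The 8 stromal progenitor markers summed to 2172 to 2222 CPM against 1920 to 2065 CPM, with Dpp4 under 1 CPM in every sample. Within this sum Pdgfra (0.551-fold), Pi16 (0.581-fold) and Cd34 (0.347-fold) were called lower, Thy1 rose (1.14-fold) and Pdgfrb stood at 705 and 733 CPM. Some markers of other cell types lay at or near 0 and others did not. Of the epithelial markers Krt8, Krt14 and Krt18 had 0 reads in all 6 samples, as had Myod1, Pax7 and Ckm of skeletal muscle, and Ptprc, which marks leukocytes, and Pecam1, an endothelial gene, stayed under 1 CPM, while Cd68 and Csf1r of the macrophage list and Tek of the endothelial list stood at 5.64, 6.08 and 6.05 CPM in control. The mesothelial sum of 5 genes was 23.4 to 24.5 CPM against 35.3 to 46.9 CPM, almost all of it Krt19, with Upk3b, Msln and Wt1 under 1 CPM. The skeletal muscle sum was at most 20.2 CPM in control against 29.7 to 34.2 CPM, almost all of it Acta1. The mural sum was 89.5 to 95.5 CPM against 97.3 to 114 CPM, with more Cspg4 (50.7 ± 2.42 and 71.8 ± 7.25 CPM) while Abcc9 (0.528-fold) and Kcnj8 (0.445-fold) were called lower. The macrophage sum was 14.5 to 15.7 CPM against 12.2 to 15.8 CPM, the endothelial sum 8.13 to 9.27 CPM against 5.09 to 5.92 CPM and the Schwann cell sum 6.09 to 6.97 CPM against 4.45 to 5.31 CPM. The part that these markers play in the Hox values was not tested, and in bulk RNA fewer cells of a type cannot be told apart from less RNA per cell. The gene of the overexpressed miRNA, Mir182, had 0 reads in all 6 samples. Poly(A) libraries do not hold mature miRNAs or mimics, so if a mimic was used this checks nothing about the labels. If a vector was used, reads on this gene would depend on its design, which is not given in the sources used here.

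Of the 39 Hox genes, 29 were expressed, meaning at least 1 CPM in each of the 3 control samples, and 2 were low (Hoxa11 and Hoxd9). A trace, with a mean under 10 reads in each group, was found for Hoxa13, Hoxb13, Hoxd1, Hoxd10 and Hoxd11. No read was found in any sample for Hoxb1, Hoxd12 and Hoxd13, and a count of 0 allows up to 3 reads, or 0.104 to 0.116 CPM on unscaled library sizes, for counting error only. By cluster, 9 of 11 Hoxa genes, 8 of 10 Hoxb genes, 9 of 9 Hoxc genes and 3 of 9 Hoxd genes were expressed. By position, the 15 central genes (paralogs 4 to 8) were all expressed, as were 6 of 8 anterior genes (paralogs 1 to 3) and 8 of 16 posterior genes (paralogs 9 to 13).

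To compare one gene with another, each level was expressed as CPM per kilobase of merged exon length (GENCODE M21), and this is what level means below unless CPM is named. The highest Hox level in control was that of Hoxc10, a posterior gene known from hindlimb and lumbar regions, and the next were Hoxb9, Hoxc8 and Hoxc6, all known for patterning the thoracic skeleton. Hoxc10 stood at 33.7, 34.1 and 32.3 in control replicates 1 to 3, with a mean of 33.4 ± 0.912 (SD, n = 3). Hoxb9 stood at 19.1 ± 0.386, Hoxc8 at 18.6 ± 0.694 and Hoxc6 at 16.1 ± 0.0821. Among 12961 tested genes with a known length, Hoxc10 lay at percentile 89.7, Hoxb9 at 81.3, Hoxc8 at 80.8 and Hoxc6 at 77.8, whereas Hoxa10, next in order, lay at 59.4. The Hoxc10 samples lay above all others and the Hoxb9 and Hoxc8 samples overlapped, so those 2 genes did not differ beyond their spread.

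**Figure D1:**
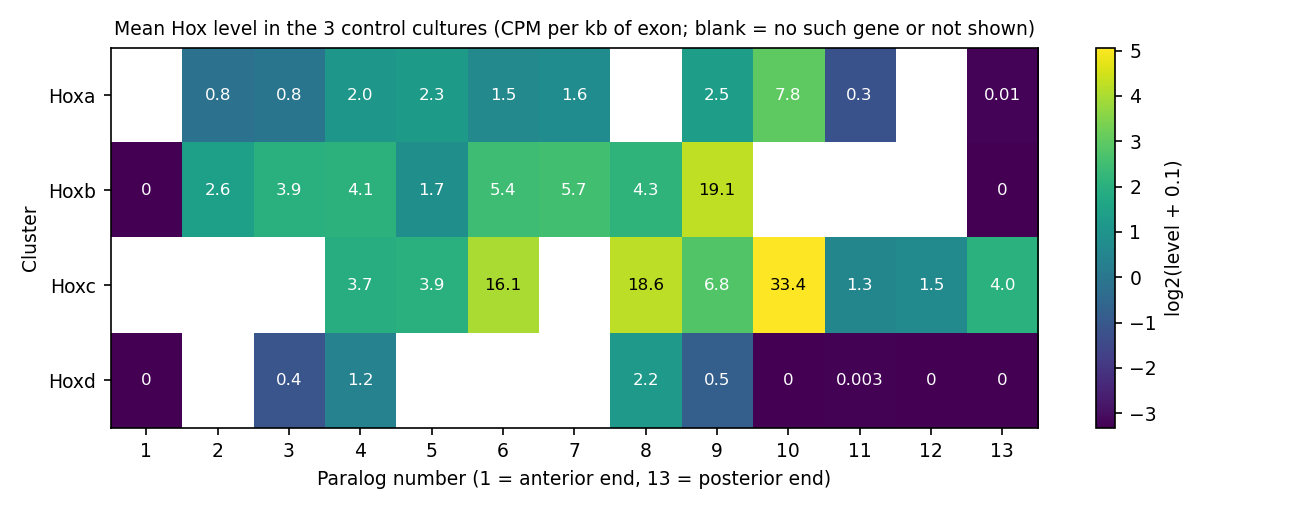
Mean level of 38 of the 39 Hox genes in the 3 control samples as a grid of the 4 clusters (rows) and paralog numbers 1 to 13 (columns); each cell gives the level in CPM per kilobase of exon and its colour is log2 of the level + 0.1. The bright cells run through Hoxc6, Hoxc8, Hoxc10 and Hoxb9, and the dark cells lie at the posterior end of Hoxa, Hoxb and Hoxd and at Hoxb1 and Hoxd1.

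The Hoxc cluster was read from end to end. Its level was 3.65 ± 0.324 at Hoxc4 and 3.90 ± 0.454 at Hoxc5, 16.1 at Hoxc6 and 18.6 at Hoxc8, then 6.75 ± 0.201 at Hoxc9 and 33.4 at Hoxc10. Beyond Hoxc10 it was 1.33 ± 0.123 at Hoxc11 and 1.46 ± 0.191 at Hoxc12, which overlapped each other. Hoxc13, the last gene, which is known from hair follicles and tail, was higher again at 3.97 ± 0.378, with 4.31, 3.56 and 4.03 in the 3 control samples. Its lowest control sample lay above the highest of Hoxc11 and Hoxc12, which was 1.67.

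In the Hoxb cluster the highest gene was Hoxb9, the last before the distant Hoxb13. Hoxb1, which patterns the hindbrain, had no reads, and Hoxb2 stood at 2.56 ± 0.156, Hoxb3 at 3.89 ± 0.0963, Hoxb4 at 4.07 ± 0.238 and Hoxb5 at 1.73 ± 0.0481. Hoxb6 (5.36 ± 0.770), Hoxb7 (5.68 ± 0.365) and Hoxb8 (4.33 ± 0.372) were followed by Hoxb9 at 19.1. Hoxb13, far from the others at the posterior end, had 0 reads in the 3 control samples and 1, 2 and 1 with miR182 overexpression, both at or under the limit set by a count of 0.

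In the Hoxa cluster the peak was Hoxa10, which is known from the hindlimb and the uterus, and the other genes stood below it. Hoxa2 stood at 0.800 ± 0.211, Hoxa3 at 0.848 ± 0.104, Hoxa4 at 2.05 ± 0.279 and Hoxa5 at 2.27 ± 0.142. Hoxa6 stood at 1.46 ± 0.250, Hoxa7 at 1.59 ± 0.137, Hoxa9 at 2.49 ± 0.0712 and Hoxa10 at 7.83 ± 0.185. The level dropped after Hoxa10. Hoxa11 had 9, 21 and 29 reads in control replicates 1 to 3, a level of 0.331 ± 0.167, and Hoxa13 had 0, 0 and 1 read.

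The Hoxd cluster was nearly silent on its posterior side. Hoxd8 was its highest gene at 2.17 ± 0.237, followed by Hoxd4 at 1.21 ± 0.0377, Hoxd9 at 0.482 ± 0.0516 and Hoxd3 at 0.359 ± 0.0372. Hoxd9 had 23, 28 and 29 reads in control, while Hoxd10, Hoxd11, Hoxd12 and Hoxd13, the genes known for patterning the digits and the genital region, had 1 read in all over the 3 control samples, on Hoxd11. Hoxd1, at the anterior end, had none. The change from reads to almost none lay between Hoxd9 and its neighbour Hoxd10. The RefSeq promoters (build GRCm38.p6, 250 bases before to 50 after the gene start, plus strand) on either side of it are shown to compare the sequence at this step; capitals mark the motifs GGGCGG and CCAAT on either strand, searched together with TATAAA, TGATNNAT and TGACAG.
Hoxd9, chr2:74697513-74697812: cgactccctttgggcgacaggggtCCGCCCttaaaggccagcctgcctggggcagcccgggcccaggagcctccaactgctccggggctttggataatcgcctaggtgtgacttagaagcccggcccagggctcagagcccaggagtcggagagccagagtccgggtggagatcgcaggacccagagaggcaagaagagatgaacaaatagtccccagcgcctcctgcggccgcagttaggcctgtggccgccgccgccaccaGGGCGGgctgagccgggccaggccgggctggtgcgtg
Hoxd10, chr2:74691641-74691940: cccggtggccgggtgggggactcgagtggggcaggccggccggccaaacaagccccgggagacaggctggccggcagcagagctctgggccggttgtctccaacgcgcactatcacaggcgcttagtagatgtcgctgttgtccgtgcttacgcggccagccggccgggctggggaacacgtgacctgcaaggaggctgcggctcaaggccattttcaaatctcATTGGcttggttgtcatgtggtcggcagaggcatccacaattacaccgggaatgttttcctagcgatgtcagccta
Hoxd9 held 20 CpG dinucleotides and Hoxd10 held 22, with 68.3% and 62.7% G + C. Of all 32851 promoters of this length, 35.7% held GGGCGG, 37.4% CCAAT, 13.6% TATAAA, 8.85% TGATNNAT and 19.2% TGACAG. Over the 24 promoter windows that matched 22 of the 39 Hox genes the median was 14.5 CpG, against 7.0 over all promoters, and the promoters of Hoxd13 (37 CpG, 0 reads) and Hoxa5 (29 CpG, a level of 2.27) show that rich windows occurred with and without reads.

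**Figure D2:**
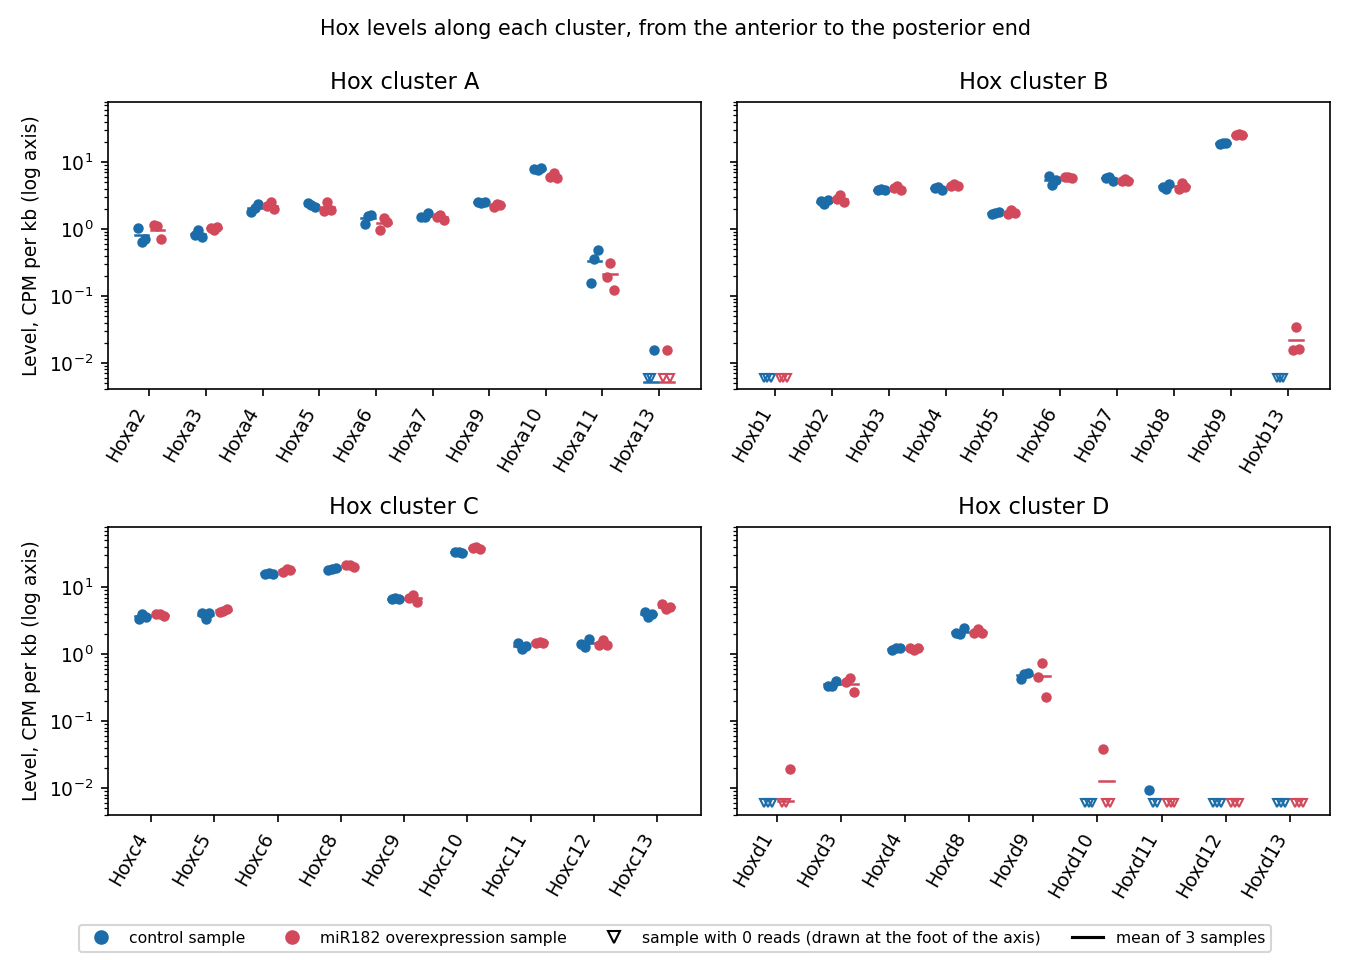
Level (CPM per kilobase, log axis) of 38 Hox genes along the 4 clusters from the anterior (left) to the posterior end (right); dots are the 3 control (blue) and the 3 miR182 overexpression samples (red), lines their means, and open triangles samples with 0 reads. In both groups Hoxa10, Hoxb9, Hoxc10 and Hoxd8 are the highest of their clusters, and Hoxd10 to Hoxd13 lie at or near the foot of the axis.

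In the order of the 29 expressed genes in control, 10 of the 28 pairs of neighbours were separate over the 3 samples and 18 overlapped. The separate steps described here were Hoxc10 to Hoxb9, Hoxc8 to Hoxc6, Hoxc6 to Hoxa10, Hoxa10 to Hoxc9, Hoxc9 to Hoxb7, Hoxc4 to Hoxb2, Hoxa9 to Hoxa5, Hoxd4 to Hoxa3 and Hoxa2 to Hoxd3. Between Hoxb7 (5.68) and Hoxc4 (3.65) no neighbours were separate, nor were any between Hoxb5 (1.73) and Hoxd4 (1.21). Hoxc10 stayed first and Hoxa10 stayed 5th with the longest transcript or the RefSeq-matched transcript as the length, whereas other places changed with it. Hoxc6 was 24.5 with either transcript length and Hoxc8 23.7 with the longest and 28.2 with the RefSeq-matched transcript, both then above Hoxb9, which stayed at 19.1. Hoxa9 was 4.31 and Hoxa3 1.97 with either, the latter then above Hoxd4, and Hoxb2 was 5.48 with the RefSeq-matched transcript, then above Hoxc4 (4.73). Hoxd3 and Hoxd4 share annotated exons on the same strand, and Hoxc5 and Hoxc10 share 166 exon bases. Hoxa2 and Hoxa3 share 267 and 482 exon bases with another annotated gene on their strand, Gm28308, and Hoxa9 shares 85 with Mir196b. Hoxb2, Hoxb3, Hoxb5, Hoxa3, Hoxa4, Hoxa7 and Hoxa11 lie opposite RNA genes, as do Hoxd3 and Hoxd4. The levels of all these genes are uncertain. If the annotation used for counting also shares the same-strand exons, reads there could be assigned to neither gene, whatever the strand setting. In Hoxd3 such exons made up 2613 of 4191 bases, while its level was divided by the full length. For the genes opposite RNA genes, the setting for strand in the counting was not given in the sources used here.

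The second question was whether this pattern held with miR182 overexpression. The order was almost the same. Across the 29 expressed genes, Spearman's rho between the mean levels of the groups was 0.987 and Pearson's r of their log2 levels was 0.994, as a description over genes that share libraries and lengths. Between pairs of single control samples rho was 0.976 to 0.992, which is not on the same basis as rho between group means. Of the 29 genes, 13 kept their rank, among them Hoxc10, Hoxb9, Hoxc8 and Hoxc6 in places 1 to 4, and the largest shift was 3 places, seen for Hoxb8, Hoxa5 and Hoxc11. The highest gene of each cluster was the same in both groups.

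The clusters took nearly the same shares of the summed Hox level. The Hoxc share was 55.1% ± 0.435 in control and 56.3% ± 0.740 with miR182 overexpression (SD, n = 3). On this scale the samples just overlapped (highest control 55.49%, lowest with miR182 overexpression 55.47%). By summed reads, longest transcript or RefSeq-matched transcript, all 3 samples with miR182 overexpression lay above all 3 controls. By reads the Hoxc share was 50.8% to 51.5% against 51.7% to 53.1%. The Hoxd share was 2.61% ± 0.166 and 2.36% ± 0.153, with overlap except by reads (lowest control 2.876%, highest with miR182 overexpression 2.873%). The Hoxb share was 28.9% ± 0.312 and 30.2% ± 0.294, and here all 3 samples with miR182 overexpression lay above all 3 controls. The Hoxa share was 13.1%, 13.4% and 13.8% in control and 10.8%, 11.7% and 10.8% with miR182 overexpression, so the groups were separate, with means of 13.4% ± 0.330 and 11.1% ± 0.536. Posterior genes took 47.7% ± 0.359 and 49.3% ± 0.346, central genes 45.8% ± 0.364 and 44.3% ± 0.559, and anterior genes 6.48% ± 0.0666 and 6.41% ± 0.252. The groups were separate for the share of posterior genes (higher) and of central genes (lower) and overlapped for anterior genes. The shares of a sample add up to the whole, so a lower share need not mean lower genes. Of the 15 central genes, 9 had a positive log2 fold change and 6 a negative one. The 3 central genes past the edgeR adjusted p alone were all higher. Of the 4 tested Hoxd genes, 2 were positive and 2 negative. Which class took more turned with the length used, since in control central genes took 48.9% and posterior genes 43.9% by longest transcript, and 50.4% and 41.4% by RefSeq-matched transcript. Summed over all Hox genes, control samples held 401 to 409 CPM and samples with miR182 overexpression 433 to 464 CPM. These sums were given no test.

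Each gene was then tested in a fit over 13117 genes (edgeR, quasi-likelihood), in which 31 of the 39 Hox genes passed the filter on low counts, namely the 29 expressed genes, Hoxa11 and Hoxd9. At the study's cutoffs of 1.5-fold and an adjusted p under 0.05, no Hox gene was called, against 7.45% of all genes tested. None of the 31 had both an unadjusted p under 0.05 and a 1.5-fold change, against 1046 of all 13117 genes tested. An unadjusted p under 0.05 was found for 9 of the 31, against 6963 of all 13117. DESeq2 and limma-voom also called 0 Hox genes. Without control replicate 1, which had the fewest Hoxa11 reads of the 3 controls (9), Hoxa11 was called, with a log2 fold change of -0.995 (edgeR adjusted p = 0.0472). By adjusted p alone, and without matching for expression level, 7 Hox genes changed (22.6%), against 46.7% of all genes. Of these 6 were higher, where 23.2% of all genes were, and 1 was lower, where 23.5% were. The log2 fold changes of the 31 genes ran from -0.66 (Hoxa11) to 0.42 (Hoxb9) with a median of 0.07, against -0.00 for all genes tested, and 20 were positive.

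A change can also be bounded. For 27 of the 31 Hox genes (87.1%) the whole 95% interval of the fold change lay inside 1.5-fold either way (0.58 on the log2 scale), against 77.3% of all genes tested. The interval reached past 1.5-fold for the other 4. It was -0.21 to 0.79 for Hoxa2, -0.73 to 0.24 for Hoxa6, -1.54 to 0.22 for Hoxa11 and -0.73 to 0.66 for Hoxd9. A 1.5-fold rise of Hoxa2, a fall of Hoxa6 or Hoxa11 of that size, and either change of Hoxd9 thus lay within their intervals. The narrowest bounds were on the highest genes, such as 0.34 to 0.50 for Hoxb9 and 0.13 to 0.30 for Hoxc10.

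**Figure D3:**
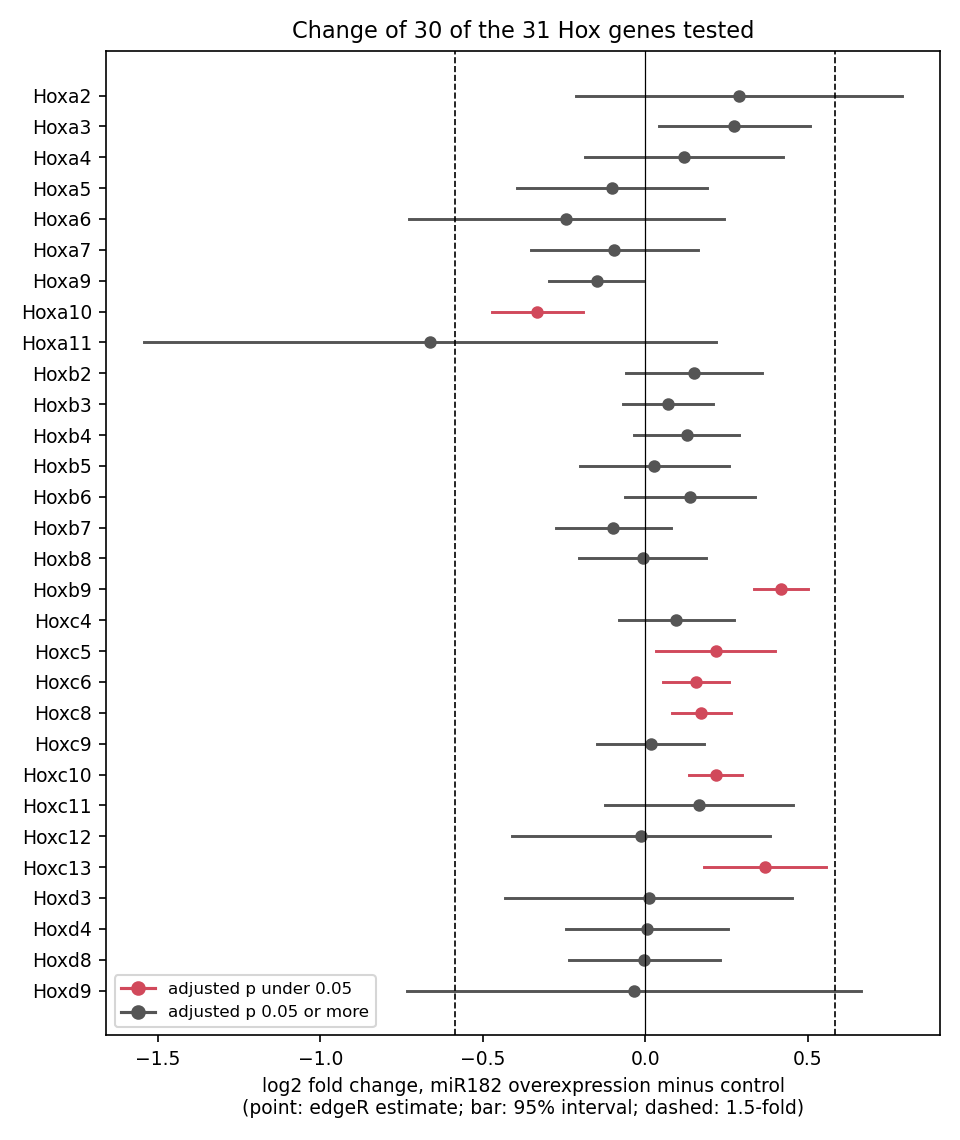
The log2 fold change of 30 of the 31 tested Hox genes (miR182 overexpression minus control), listed by cluster and paralog number; points are edgeR estimates, bars 95% intervals, red marks an adjusted p under 0.05 and dashed lines mark 1.5-fold. The red points are Hoxa10 on the lower side and Hoxb9, Hoxc5, Hoxc6, Hoxc8, Hoxc10 and Hoxc13 on the higher side, and only the bars of Hoxa2, Hoxa6, Hoxa11 and Hoxd9 cross a dashed line.

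The 6 genes that rose were Hoxb9 and 5 of the 9 Hoxc genes, and they included the 4 highest Hox genes of these cells. Hoxb9 had 1229, 1284 and 1312 reads in control and 1891, 1764 and 1855 with miR182 overexpression. This was 49.2 ± 0.995 and 65.8 ± 1.09 CPM (SD, n = 3), a 1.34-fold rise (log2 0.42, SE 0.038, edgeR adjusted p = 7.72e-07). The groups did not overlap. Hoxc10 had 1638, 1698 and 1611 reads in control and 2179, 2004 and 2017 with miR182 overexpression. Its 63.7 ± 1.74 CPM became 74.0 ± 2.37 CPM, a log2 change of 0.22 (SE 0.038, edgeR adjusted p = 0.000340), without overlap. Hoxc8 and Hoxc6 moved less. Hoxc8 stood at 52.7 ± 1.96 and 59.4 ± 1.71 CPM (log2 0.17, SE 0.042, edgeR adjusted p = 0.00401). Hoxc6 stood at 38.7 ± 0.198 and 43.1 ± 2.02 CPM (log2 0.16, SE 0.047, edgeR adjusted p = 0.0141). In both genes all samples with miR182 overexpression lay above all controls.

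The other 2 that rose were lower in level. Hoxc13, the last gene of its cluster, had 270, 229 and 259 reads in control and 401, 310 and 346 with miR182 overexpression. This was 9.77 ± 0.929 and 12.6 ± 1.03 CPM, a log2 change of 0.37 (SE 0.087, edgeR adjusted p = 0.00321), and the groups did not overlap. Hoxc5 had 329, 272 and 333 reads in control and 391, 363 and 417 with miR182 overexpression, or 12.03 ± 1.404 and 13.98 ± 0.710 CPM. Its log2 change of 0.22 (SE 0.085, edgeR adjusted p = 0.0489) was near the threshold, and it passed in 8 of 13 alternatives with adjusted p from 0.0383 to 0.219. Among these, leaving out control replicate 2 took it to 0.12 (edgeR adjusted p = 0.219), and it also missed the threshold without replicate 2 or 3 of miR182 overexpression. Hoxc6 passed in 12 of 13 and missed it without replicate 2 of miR182 overexpression (edgeR adjusted p = 0.0621), while Hoxb9, Hoxc8, Hoxc10 and Hoxc13 passed in all 13. Within the cluster, Hoxc9 lies between Hoxc8 and Hoxc10 and was 16.4 ± 0.489 and 16.6 ± 1.81 CPM, with an interval of -0.15 to 0.18.

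Hoxa10 was the gene that fell. It had 647, 656 and 686 reads in control and 572, 593 and 537 with miR182 overexpression, so that all 3 latter samples lay below all controls. This was 25.6 ± 0.605 and 20.4 ± 1.87 CPM, 0.795-fold (log2 -0.33, SE 0.065, edgeR adjusted p = 0.000842), and the gene passed in all 13 alternatives. Its neighbour Hoxa9 had 363, 352 and 365 reads in control and 346, 349 and 355 with miR182 overexpression. At 13.9 ± 0.397 and 12.6 ± 0.697 CPM its log2 difference was -0.15 (SE 0.068), with an unadjusted p of 0.0473 and an edgeR adjusted p of 0.0902, which did not pass. Among the 31 tested Hox genes, all 3 samples with miR182 overexpression lay below all 3 controls for these 2 genes only (27.5% of all genes tested), and above for 8 Hox genes (27.3% of all genes), which were the 6 that rose with Hoxa3 and Hoxb4. Hoxa3 stood at 5.10 ± 0.624 and 6.16 ± 0.266 CPM (log2 0.27, SE 0.11, edgeR adjusted p = 0.0515), and without control replicate 2 it passed (log2 0.38, edgeR adjusted p = 0.0192). Hoxb4 stood at 10.4 ± 0.610 and 11.4 ± 0.5001 CPM (log2 0.13, SE 0.075, edgeR adjusted p = 0.183).

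**Figure D4:**
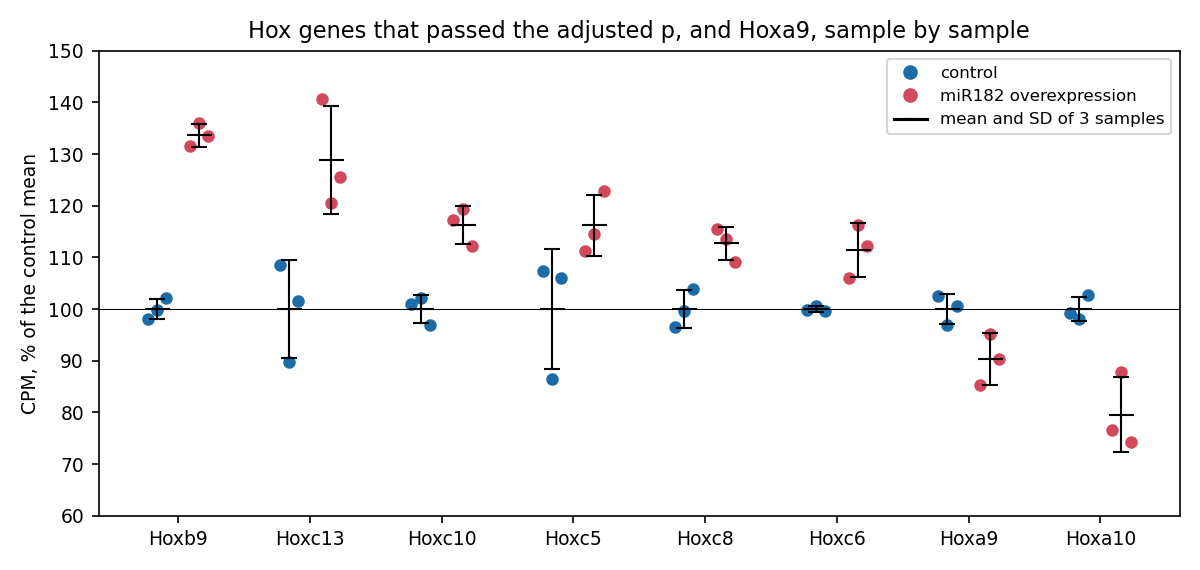
CPM of the 7 Hox genes with an adjusted p under 0.05, and of Hoxa9, in each sample as a percentage of the control mean (blue control, red miR182 overexpression; black marks are the mean and SD of 3 samples; the axis starts at 60%). In all 8 genes the red samples lie on one side of the blue ones, below for Hoxa9 and Hoxa10 and above for the other 6.

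The rest of the tested Hox genes overlapped between groups. In the Hoxa cluster these included Hoxa2 (log2 0.29), Hoxa4 (0.12), Hoxa5 (-0.10), Hoxa6 (-0.24), Hoxa7 (-0.10) and Hoxa11 (-0.66). In the Hoxb cluster they were Hoxb2 (0.15), Hoxb3 (0.07), Hoxb5 (0.03), Hoxb6 (0.14), Hoxb7 (-0.10) and Hoxb8 (-0.01). Hoxb6 passed the adjusted p when control replicate 1 was left out (log2 0.24, edgeR adjusted p = 0.0480). In the Hoxc cluster Hoxc4 (0.10), Hoxc9 (0.02), Hoxc11 (0.17) and Hoxc12 (-0.01) overlapped, and in the Hoxd cluster Hoxd3 (0.01), Hoxd4 (0.01), Hoxd8 (-0.00) and Hoxd9 (-0.03) did. Some of these values near 0 change sign with the normalization or the tool, as given among the processing results. By adjusted p alone, 1 of 10 tested Hoxa genes, 1 of 8 Hoxb, 5 of 9 Hoxc (55.6%, against 46.7% of all genes) and 0 of 4 Hoxd genes passed, and none of the Hoxd genes had an unadjusted p under 0.05 in edgeR either.

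A miRNA lowers mRNAs that pair with its seed, bases 2 to 8 at its 5′ end, mostly through sites in the 3′-UTR. The mature sequence from RefSeq (GRCm38.p6, chr6:30165962-30165986, minus strand) is shown with its seed in capitals, and the Hox and cofactor 3′-UTRs that hold the 7-base match TTGCCAA follow with the match in capitals (GENCODE M21, GRCm38). The study's methods list, under qRT-PCR, another mature sequence for this miRNA than RefSeq holds. The target site named for the study's reporter assay is complementary to part of the RefSeq sequence and not to the one listed. The sequence delivered to these samples is not stated, and the match depends on it.
miR-182-5p: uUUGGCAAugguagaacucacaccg
Hoxa10, chr6:52231354-52231360, minus strand: attatgaaaaaTTGCCAAtcttgtttaagc
Hoxa9, chr6:52223119-52223125, minus strand: atatttaacttTTGCCAAataaaatatatt
Hoxd12, chr2:74676075-74676081, plus strand: ggcctgaggccTTGCCAAgcctgccctttt
Pbx2, chr17:34597005-34597011, plus strand: gaggggagttcTTGCCAAatacgctaaata
Meis2, chr2:115864370-115864376, minus strand: tgcattcatatTTGCCAAgccatccccacc
The match was found in 3 of 39 Hox 3′-UTRs (7.69%), against 10.9% of 19752 genes with a 3′-UTR. Hoxd12 had no reads, so the tested Hox genes with the match were Hoxa10 and Hoxa9. Their samples with miR182 overexpression lay below all controls, as for 27.5% of all genes tested, and Hoxa9 did not pass the adjusted p. Over all tested genes with a known 3′-UTR, the 1565 with the match had a median log2 fold change of -0.07 and the 10929 without it 0.01. A match is a string in the reference and no evidence of binding, and its part in these values was not tested.

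The Hox clusters also hold miRNA genes of their own, miR-10 and miR-196, which are known to act on Hox mRNAs. The mature sequences from RefSeq (GRCm38.p6) fall into 2 groups by their shared seed, in capitals.
miR-10a, chr11:96317186-96317208: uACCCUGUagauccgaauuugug
miR-10b, chr2:74726074-74726096: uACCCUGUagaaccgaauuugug
miR-196a, chr11:96265187-96265208 and chr15:102973365-102973386: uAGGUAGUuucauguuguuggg
miR-196b, chr6:52230129-52230150: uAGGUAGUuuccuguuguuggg
The match to the miR-196 seed, ACTACCT, was found in 9 of 39 Hox 3′-UTRs (23.1%), against 6.34% of all genes, with 4 matches in Hoxa7 and 2 in Hoxc8. The match to the miR-10 seed, ACAGGGT, was found in 4 of 39 (10.3%), against 12.97% of all genes. The mature forms were not measured. Reads on the gene of miR-196a in the Hoxb cluster, Mir196a-1, numbered 33, 40 and 39 in control and 39, 38 and 47 with miR182 overexpression, and those on Mir196b, which shares exon bases with Hoxa9, numbered 0 to 7. Mir10a and Mir10b each had 0 or 1 read in every sample.

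Hox proteins bind DNA together with TALE homeodomain partners of the Pbx, Meis and Pknox families. Of the 10 cofactor genes listed and tested, 1 was called at both cutoffs and 6 passed the adjusted p alone (60%, against 46.7% of all genes tested), 5 of them lower (23.5% of all genes). The share called at both cutoffs over all genes was 7.45%. Pbx2 had 1063, 1009 and 1038 reads in control and 730, 648 and 691 with miR182 overexpression, without overlap. It fell from 40.1 ± 1.58 to 24.7 ± 0.279 CPM (log2 -0.70, SE 0.049, edgeR adjusted p = 5.96e-08). Meis2, the other cofactor with the 7-base match, fell from 34.5 ± 0.631 to 29.1 ± 1.63 CPM (log2 -0.25, edgeR adjusted p = 0.00145). Meis3 (log2 -0.30) and Pknox1 (-0.15) fell as well without a match, Pknox2 rose (0.23), and Pbx3 (0.07), Meis1 (0.02), Pbx4 (-0.48) and Pbxip1 (-0.01), a protein that binds Pbx factors, did not pass.

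Hox clusters are held silent by Polycomb proteins and kept active by Trithorax proteins. Of 30 Polycomb genes tested, 3 were called, all lower: Cbx2 (11.5 ± 0.428 to 7.63 ± 0.902 CPM, log2 -0.59), Phf19 (1.10 ± 0.156 to 0.461 ± 0.166 CPM, log2 -1.23) and Cbx7 (2.23 ± 0.397 to 1.36 ± 0.119 CPM, log2 -0.71). By adjusted p alone 14 of the 30 passed, 8 higher and 6 lower, which is 46.7%, as over all genes tested, where 7.45% were called at both cutoffs, and the median log2 fold change was 0.05. Without control replicate 1 only Phf19 stayed called, and Cbx2 was not called without replicate 2 or 3 of miR182 overexpression either. Of 14 Trithorax and H3K27 demethylase genes none was called at both cutoffs by edgeR, DESeq2 or limma-voom. An unadjusted p under 0.05 in edgeR was found for 9 of the 14 (6963 of all 13117 genes tested). By adjusted p alone 6 passed (42.9%, against 46.7% of all genes), 5 of them higher. The smallest p was that of Dot1l, an H3K79 methyltransferase, which rose from 79.6 ± 1.55 to 109 ± 6.46 CPM (log2 0.46, edgeR adjusted p = 6.70e-07).

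Genes that flank the clusters were read too. Of 15 listed, 14 were in the files and 9 were tested. None was called at both cutoffs by edgeR, DESeq2 or limma-voom. An unadjusted p under 0.05 in edgeR was found for 7 of the 9 (6963 of all 13117 genes tested). By adjusted p alone 6 passed (66.7%, against 46.7% of all genes), 3 in each direction. The smallest p was that of Cbx5, beside the Hoxc cluster, which encodes a heterochromatin protein and fell from 139 ± 2.66 to 118 ± 1.78 CPM (log2 -0.23). Evx1 and Evx2, homeobox genes at the posterior ends of the Hoxa and Hoxd clusters, had 0 reads in all 6 samples. Of 11 antisense RNA genes listed, 3 were found under older symbols. Hoxaas3, opposite Hoxa3 and Hoxa7, was the one tested, with 20, 14 and 19 reads in control and 12, 10 and 13 with miR182 overexpression (log2 -0.70, SE 0.29, edgeR adjusted p = 0.0625, unadjusted p = 0.0306), and without control replicate 2 it was called (log2 -0.85, edgeR adjusted p = 0.0457). Hoxa11os had 21, 7 and 11 reads and then 8, 7 and 10, and Hoxd3os1 had 4, 3 and 3 reads and then 6, 0 and 3.

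Other developmental genes that differ between fat depots were read as well. Tbx15, a T-box gene of subcutaneous fat, stood at 95.9 ± 2.86 CPM in control and 101 ± 1.77 with miR182 overexpression, with overlap. Of the limb list Emx2, a homeobox gene of limb girdles and the urogenital region, stood at 27.8 ± 0.661 and 29.7 ± 1.47 CPM. Pitx1 stood at 4.87 ± 0.281 and 4.82 ± 0.603 CPM, and Tbx4 was low at 0.849 ± 0.265 and 0.515 ± 0.0478 CPM. Wt1, Upk3b, Msln and Tcf21 of the visceral list were under 1 CPM in every sample, whereas Nr2f1 stood at 9.24 ± 0.419 CPM in control. Of the brown fat list Zic1 and Epsti1 were under 1 CPM, while Lhx8 stood at 8.02 ± 0.776 CPM and Ebf3 at 24.6 ± 0.693 CPM in control. Of 13 tested genes in these lists none was called at both cutoffs by edgeR, DESeq2 or limma-voom. An unadjusted p under 0.05 in edgeR was found for 10 of the 13 (6963 of all 13117 genes tested). By adjusted p alone 7 passed, where 46.7% of all genes did. Leaving out control replicate 2, or a filter of 10 counts in every sample, gave 1 call, Tbx4 (log2 -0.88 and -0.72, edgeR adjusted p = 0.0380 and 0.0483), and leaving out replicate 1 of miR182 overexpression gave 1, Tbx5. The smallest p among the subcutaneous genes was that of Sfrp2 (54.6 ± 1.90 to 40.6 ± 2.38 CPM, log2 -0.43), among the limb genes that of Tbx5 (6.86 ± 0.228 to 4.75 ± 0.581 CPM, log2 -0.52) and among the brown fat genes that of Ebf3 (21.9 ± 1.502 CPM with miR182 overexpression, log2 -0.17). Sfrp2 was the only 1 of the 6 subcutaneous genes that fell, and 5 had a positive log2 fold change. By edgeR adjusted p alone 3 of the 6 were higher, where 23.2% of all genes were. All samples with miR182 overexpression lay above all controls for Shox2 (log2 0.16), En1 (0.27), Irx3 (0.32) and Irx5 (0.30), as for 27.3% of all genes.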

How the data were processed

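Poly(A) RNA of 3 control and 3 miR182 overexpression samples had been sequenced from stranded libraries. What the authors deposited is 1 list per sample of unnormalized counts, by gene symbol. The submitters' processing notes name bcl2fastq, TopHat2, HTSeq and build mm9; versions and the strand setting are not given in the sources used here. Reads that aligned to more than 1 place (19363264 to 21673840 tallied per sample) were not counted, which lowers genes with near-identical copies. Reads ambiguous between genes (0.652% to 0.667%) were not counted either, which lowers genes whose exons overlap. The 5 tally lines were left out. Counts were tested with edgeR 4.0.16 in R 4.3.3 (TMM, default filterByExpr with a minimum count of 10, glmQLFit, glmQLFTest, two-sided, Benjamini-Hochberg over 13117 genes), with groups from the labels and no block. Intervals are 95%. Sampling noise did not account for the difference between any 2 replicates of a group (chi-square per degree of freedom 2.13 to 7.19). Each was counted as 1 sample. Separate libraries of 1 culture could also differ beyond sampling noise, so this does not show that the replicates were independent. On simulated counts for this comparison (13012 genes, 200 changed by 1 on the log2 scale), 185 were recovered by adjusted p alone (92.5%) with 7 false calls. Smaller changes, such as those of the Hox genes, were not simulated.

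Levels are TMM-scaled CPM per kilobase of merged exons. The 39 Hox symbols were matched to GENCODE M21 (GRCm38), as were 22169 of 22609 symbols, 1923 of them through older symbols; the coordinates given are of GRCm38, not of mm9. The longest 3′-UTR and RefSeq tables gave the sequences. RefSeq promoters were found for 22 Hox genes. The rule for names took all expressed Hox genes, or those past either threshold, all detected cofactor and antisense RNA genes, and from other lists those called (at most 5) or the one with the smallest p; 1 Hox gene and 1 cofactor gene enter the counts and sums but their own values are not reported here. Tbx15, Shox2, En1, Irx3, Irx5, Emx2, Tbx4, Pitx1, Nr2f1, Lhx8, Evx1, Evx2, Lep and Plin1 are named in addition. So are the visceral and brown genes under 1 CPM. All were chosen after their values were seen. The Hox members and all lists were chosen with earlier results of these data known. The alternatives were DESeq2 1.42.0, limma-voom (limma 3.58.1), other size factors, other count filters, the replicate number as a block, leaving out each sample, glmTreat against 1.5-fold, a 2-fold cutoff, other expression thresholds and other lengths (the RefSeq-matched transcript was added after seeing the data). Python 3.11.15, pandas 2.3.3, numpy 2.4.6 and matplotlib 3.10.9 were used for tables and figures.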

Additional observations from a re-analysis of the deposited data

How the results depend on the processing

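At both cutoffs 0 Hox genes were called under every alternative test, normalization, filter and cutoff, and leaving out each sample in turn gave 0 to 1, the 1 being Hoxa11 without control replicate 1. By adjusted p alone the alternatives gave 6 to 8 Hox genes against 7, and leaving out a sample gave 5 to 9. Held within 1.5-fold were 25 to 27. All genes called numbered 836 (DESeq2) to 1028 (no filter) against 977. The number of Hox genes expressed was 30 at a minimum of 0.5 CPM and 17 at 5 CPM, against 29. A filter of 10 counts in every sample leaves Hoxa11 untested.

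With the replicate number as a block, 0 Hox genes were called, 7 passed the adjusted p alone, 27 were held and 925 genes were called in all; the block changed no Hox call. The numbers are not shown to pair the samples, since deviations of same-numbered samples correlated at -0.172, -0.041 and -0.069 and no sample correlated best with its own number.

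Genes near 0 changed sign. Hoxd8 (-0.0021) became 0.000279 with DESeq2 size factors, 0.00414 with DESeq2 and 8.07e-05 with the block. Hoxd3 (0.0107) became -0.00129 with upper-quartile factors and -0.0135 with limma-voom, and Hoxd4 (0.00522) became -0.00679 with upper-quartile factors. Leaving out a sample gave ranges across 0 for Hoxb5 (-0.0296 to 0.0777), Hoxb8 (-0.0909 to 0.0601), Hoxc9 (-0.0504 to 0.103), Hoxc12 (-0.0902 to 0.0968), Hoxd3 (-0.127 to 0.188), Hoxd4 (-0.0188 to 0.0354), Hoxd8 (-0.0675 to 0.0886) and Hoxd9 (-0.488 to 0.298). With DESeq2 size factors Hoxa3 passed (edgeR adjusted p = 0.0498), and Hoxc5 did not pass with upper-quartile factors or DESeq2; the cause was not tested. The Hoxc share of the control level was 51.2% by summed reads and 56.0% by longest transcript, and the Hoxa share 16.01% and 14.8%. The central and posterior classes changed order with the length used. For the undetected genes the depth allows up to 3 reads per sample.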
